A study of Homo sapiens with 6 samples.

Results

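Kinesins are motor proteins that use ATP to move along microtubules or to take microtubules apart. One set builds the mitotic spindle, moves chromosomes on it and helps to divide the cell at the end of mitosis. Another set carries organelles, vesicles and RNA through the cytoplasm, and a few work in cilia. The genes described here are the rows of the series' count table whose symbol starts with KIF followed by a digit. They numbered 39 of the 23228 gene symbols, and all 39 symbols are kinesin motor genes. By textbook role 13 were placed as mitotic, 13 as cargo transport and 13 as other (cilia, microtubule length or little-studied motors). Each member was chosen by its symbol and none by its own value. The family as a whole, however, was selected on knowledge of the fold changes in this same comparison. The contrast of mitotic with transport motors was in view at that time. The fold changes and counts of the family and its role groups are therefore a description, and nothing is read from the share of members called.

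The RNA came from the established human osteosarcoma line U2OS, harvested 48 hours after lipid transfection with scrambled siRNA (3 libraries) or ALKBH5 siRNAs (3 libraries). ALKBH5 is an enzyme that takes the methyl group off N6-methyladenosine (m6A) in RNA. No second control, rescue or time point was analysed here, so loss of ALKBH5 and other effects of the siRNAs cannot be told apart. The labels do not say that replicates were separate cultures, so the tests measure library-to-library spread that may be only technical.

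ALKBH5 was low in every library labelled as its knockdown, at 19.4, 16.2 and 15.7 CPM (reads of the gene scaled to the library's reads in genes) against 138, 148 and 143 CPM (log2 fold change −3.06, SE 0.10, edgeR adjusted p = 1.6e-09). Reads in genes numbered 18817181 to 23410007 per library. Of uniquely placed reads, 15.04% to 15.5% in the scrambled and 17.3% to 18.6% in the knockdown libraries matched no feature that was counted. Where those reads lay is not given in the sources used here. Of the 6 mesenchymal and bone markers listed, VIM, SPARC and COL1A1 each stood above 1000 CPM in all 6 libraries, while RUNX2 was at 20.6 to 51.3 CPM, ALPL at 2.10 to 4.54 CPM and COL1A2 at 0.768 to 9.70 CPM, the summed level being 5383 to 5610 CPM in the scrambled and 4564 to 5342 CPM in the knockdown libraries. The 4 leukocyte markers summed to 0.684 to 2.77 CPM with CD3E at 0 reads, and the 3 endothelial markers to 1.26 to 7.70 CPM over all libraries. Epithelial markers were not absent: 4 genes summed to 504 to 597 CPM in the scrambled and 550.3 to 583 CPM in the knockdown libraries, nearly all of it KRT8 and KRT18, with CDH1 at 0.418 to 1.58 CPM.

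Of the 39 kinesin genes 36 had enough reads to be tested. KIF2B, a spindle motor, had 0 reads in all 6 libraries, which allows up to 0.125 to 0.158 CPM per library (3 reads, counting error only). KIF12 had 0 to 3 reads and KIF25 had 0 to 5 reads per library. Among the 36 tested genes 19 fell, 7 rose and 10 did not pass the test (adjusted p under 0.05). Over all 14504 tested genes 30.8% fell and 30.8% rose, together 61.6%. At least a 1.5-fold change was called for 12 lower and 3 higher kinesin genes, against 18.7% lower and 19.7% higher over all tested genes. In CPM all knockdown libraries lay below all scrambled ones for 20 of the 36 genes and above them for 7. Over all tested genes the knockdown libraries were all below in 33.9% and all above in 33.5%.

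Most mitotic motors fell, and the transport motors went both ways. Of 12 tested mitotic kinesins 9 fell, 1 rose and 2 did not pass, with a median log2 fold change of −0.63 and a range of −1.30 to 0.26. Of 13 tested transport kinesins 7 fell, 5 rose and 1 did not pass, with a median of −0.37 and a wider range of −2.03 to 1.33. All tested genes had a median of 0.01, with 30.8% called lower and 30.8% called higher. Both medians depend on which genes are listed. With KIF21A and KIF21B added the transport median was −0.045, and with KIF2A and KIF24 added the mitotic median was −0.469. The difference between both groups was not tested. In summed CPM the mitotic motors stood at 1526, 1579 and 1569 in the scrambled and at 1152, 1218 and 1133 in the knockdown libraries. The transport motors summed to 1376, 1397 and 1293 CPM against 1194, 1336 and 1134 CPM, so the highest knockdown library lay within the scrambled range. These are bulk libraries, in which fewer cells in mitosis and less RNA per mitotic cell cannot be told apart.

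**Figure D1:**
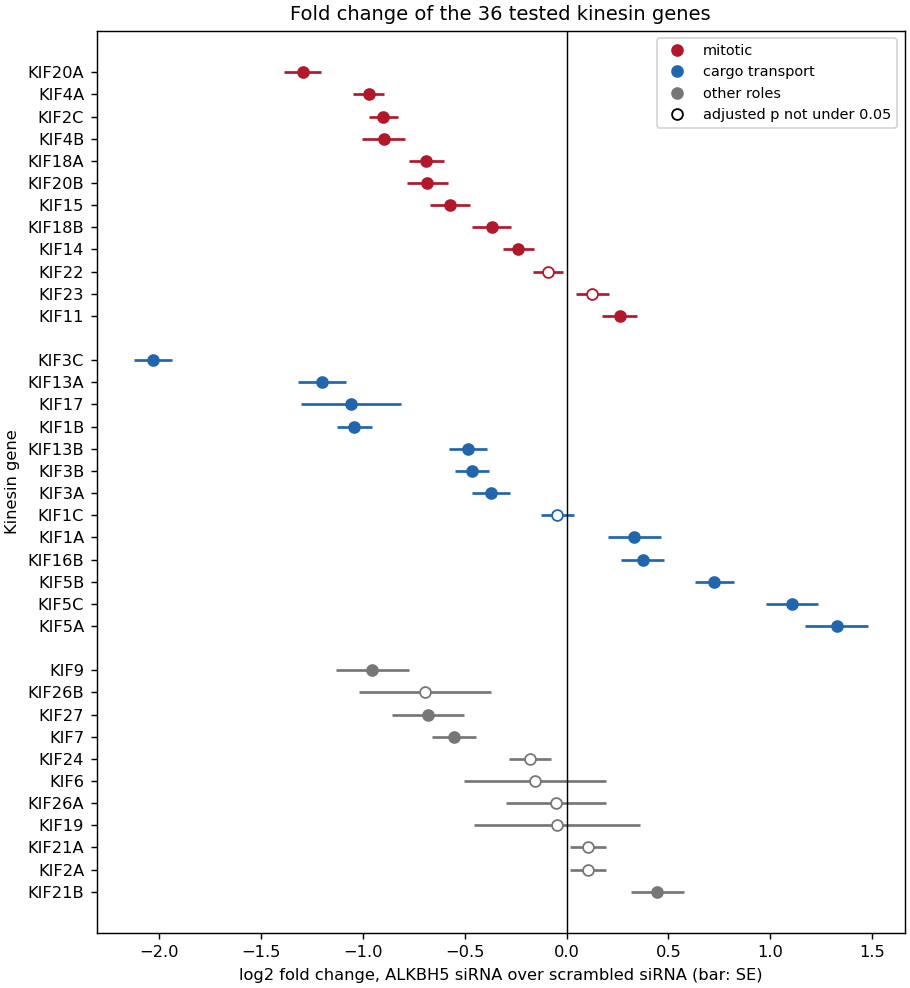
Log2 fold change (x axis) of each tested kinesin gene (y axis) in ALKBH5 siRNA over scrambled siRNA libraries, 3 per group, with bars for the standard error and open points for genes that did not pass the test. The mitotic genes lie mostly left of 0, from −1.30 to 0.26, and the transport genes on both sides, from −2.03 to 1.33.

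KIF20A, KIF4A and KIF2C showed the largest decreases among the mitotic motors. KIF20A brings the chromosomal passenger complex, which holds Aurora B kinase, to the central spindle. It was at 173, 179 and 169 CPM in the scrambled and at 79.5, 68.5 and 63.9 CPM in the knockdown libraries (log2 fold change −1.30 with SE 0.09, adjusted p = 2.1e-07). Every knockdown library was below 80 CPM, far from the scrambled values. KIF4A, a chromosome-bound motor that works with PRC1 to set midzone length, was at 118, 124 and 120.0 CPM in the scrambled libraries. Its knockdown values were 62.0, 63.7 and 58.8 CPM (log2 fold change −0.97 with SE 0.08, adjusted p = 5.6e-07). KIF2C takes microtubule ends apart and corrects faulty chromosome attachments. Its levels of 277, 274 and 292 CPM in the scrambled libraries stood against 146, 155 and 150.4 CPM in the knockdown libraries (log2 fold change −0.90 with SE 0.07, adjusted p = 5.8e-07). In all 3 of these genes every knockdown library lay below every scrambled one, as in 33.9% of all tested genes. The 3 were picked by their decrease in these same libraries, so this gap adds nothing to the test.

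KIF4B, an intronless copy of KIF4A, also fell, from 25.4, 26.3 and 26.8 CPM to 14.1, 14.9 and 13.2 CPM (log2 fold change −0.90), but its counts are uncertain. Its GENCODE 29 transcript is 95.6% identical to that of KIF4A over aligned bases, and 14.0% of its stretches of 50 bases, the read length, occur in the KIF4A transcript. Its reads were 21.5%, 21.3% and 22.4% of those of KIF4A in the scrambled and 22.7%, 23.5% and 22.4% in the knockdown libraries. The ratio thus barely moved while both genes fell, and how many KIF4B reads came from KIF4A was not tested. HTSeq counted reads without a unique place apart, so reads identical in both genes may be missing from both counts. Without KIF4B 8 of 11 tested mitotic kinesins fell, with a median log2 fold change of −0.57. Of all tested genes 30.8% fell, and their median was 0.01.

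KIF18A, which damps the movement of chromosomes at the spindle centre, was at 92.6, 96.2 and 93.6 CPM in the scrambled and 54.3, 63.7 and 57.2 CPM in the knockdown libraries (log2 fold change −0.69 with SE 0.09, adjusted p = 2.3e-05). KIF20B, which acts in cytokinesis, was at 80.3, 84.2 and 79.9 CPM against 50.3, 57.5 and 44.3 CPM (log2 fold change −0.68 with SE 0.10, adjusted p = 8.8e-05). The knockdown libraries of KIF20B were spread more widely than the scrambled ones but did not reach them. Smaller decreases were found for KIF15, which can stand in for KIF11 in keeping spindle poles apart (log2 fold change −0.57), for KIF18B, which shortens astral microtubules (−0.37), and for KIF14, a cytokinesis motor (−0.24). KIF14 no longer passed when scrambled replicate 2 was left out (adjusted p = 0.06).

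Not every mitotic motor fell. KIF23, a subunit of the centralspindlin complex of the midzone, was the most abundant kinesin in the knockdown libraries per kb of exon. It was at 290.3, 322 and 307 CPM in the scrambled and 310.2, 367 and 327 CPM in the knockdown libraries, which overlapped (log2 fold change 0.13 with SE 0.08, adjusted p = 0.20). KIF22, which pushes chromosome arms away from the poles, was at 108 to 110.0 CPM in the scrambled and 98.3 to 105 CPM in the knockdown libraries and did not pass (log2 fold change −0.09 with SE 0.07, adjusted p = 0.29). KIF11, the motor that slides spindle poles apart and the target of several antimitotic compounds, rose slightly, from 95.9, 94.1 and 95.6 CPM to 121, 120.3 and 101 CPM. Its log2 fold change was 0.26 (SE 0.09, adjusted p = 0.02). It did not pass without a scaling factor (adjusted p = 0.062), without scrambled replicate 2 (0.066), without knockdown replicate 1 (0.067) and without knockdown replicate 2 (0.054). KIF23 and KIF20A act in the same midzone, and KIF20A fell while KIF23 did not pass.

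**Figure D2:**
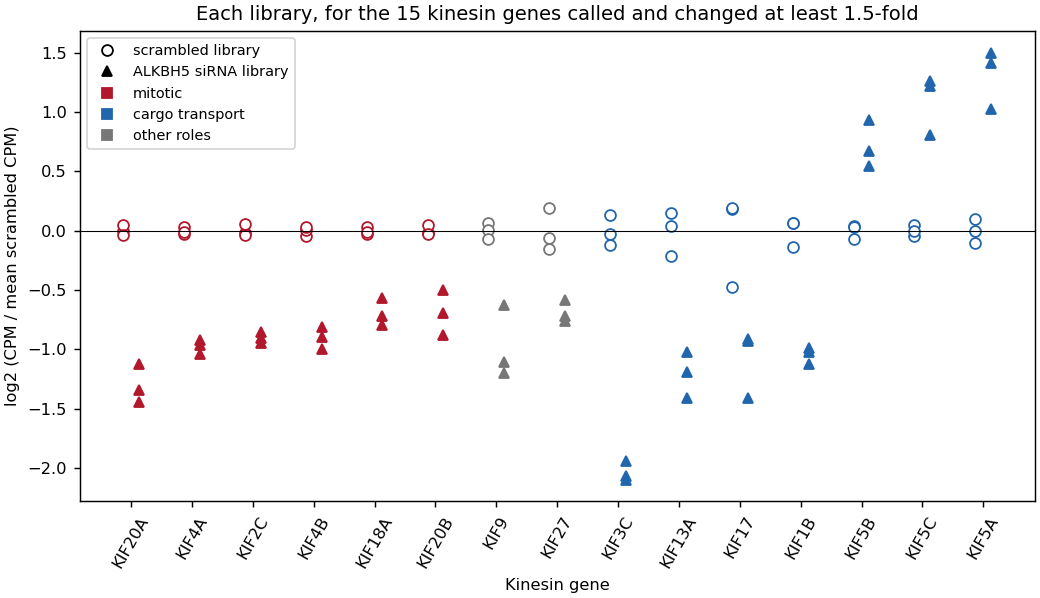
Log2 of each library's CPM over the mean of the scrambled libraries (y axis) for the 15 kinesin genes that passed the test and changed at least 1.5-fold (x axis), with circles for scrambled and triangles for ALKBH5 siRNA libraries. In each of the 15 genes, which were selected on these same libraries, the triangles and circles do not overlap. Over all tested genes the knockdown libraries were all below in 33.9% and all above in 33.5%. The KIF5 genes alone lie above 0.

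All 3 kinesin-1 heavy chains rose. Kinesin-1 is the main carrier of mitochondria, lysosomes and other cargo towards microtubule plus ends. KIF5B is its widely expressed heavy chain, and KIF5A and KIF5C are best known from neurons. KIF5B was at 265, 263 and 245 CPM in the scrambled and 411, 493 and 375 CPM in the knockdown libraries (log2 fold change 0.73 with SE 0.10, adjusted p = 4.5e-05). KIF5C was at 17.3, 16.3 and 16.7 CPM against 40.2, 39.0 and 29.4 CPM (log2 fold change 1.11 with SE 0.13, adjusted p = 1.2e-05). KIF5A was at 6.95, 6.05 and 6.49 CPM against 17.3, 13.3 and 18.4 CPM (log2 fold change 1.33 with SE 0.15, adjusted p = 1.3e-05). No knockdown library of any of the 3 reached down to a scrambled one. Over all tested genes 30.8% were called higher, and all knockdown libraries lay above all scrambled ones in 33.5%. Per kb of exon KIF5B remained the bulk of kinesin-1, at 92.2% to 93.0% of the 3 genes' sum in the scrambled and 88.9% to 91.4% in the knockdown libraries.

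Of 5 neuronal markers listed beside KIF5A and KIF5C, 1 rose, 2 fell and 2 did not pass, while 61.6% of all tested genes were called. The summed level of the 5 was 248 to 284 CPM in the scrambled and 197 to 199 CPM in the knockdown libraries. SYP, a synaptic vesicle protein, rose from 1.498 to 1.83 CPM in the scrambled libraries to 14.2 to 16.7 CPM, and MAP2, a dendritic microtubule protein, fell from 19.8 to 32.8 CPM to 2.20 to 4.35 CPM. TUBB3 fell by 0.93 on the log2 scale, and NEFL (log2 fold change 0.02) and RBFOX3 (0.27) did not pass. The part of the 5 markers in the KIF5A and KIF5C values was not tested.

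The kinesin-2 motors fell unequally. KIF3A pairs with KIF3B or with KIF3C in a motor that carries vesicles and, with KIF3B, builds cilia. KIF3C showed the largest fold change of the family, at 133, 119 and 112 CPM in the scrambled and 31.7, 29.04 and 28.3 CPM in the knockdown libraries (log2 fold change −2.03 with SE 0.10, adjusted p = 1.2e-08). That is a 4.09-fold lower level, with the lowest scrambled library far above the highest knockdown library. KIF3B was at 318, 319 and 298 CPM against 214, 252 and 212 CPM (log2 fold change −0.46 with SE 0.08, adjusted p = 4.5e-04). KIF3A fell less, by 0.37 on the log2 scale. Per kb of exon KIF3C made up 28.1%, 25.8% and 26.1% of the 3 genes' sum in the scrambled and 11.9%, 9.75% and 11.1% in the knockdown libraries. The share of KIF3B was 61.8% to 63.6% and then 73.9% to 77.5%. These shares were chosen after the values were seen and were not tested.

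The kinesin-3 motors, which carry vesicles and endosomes, went both ways. KIF13A, a carrier of recycling endosomes, was at 94.6, 102 and 79.5 CPM in the scrambled and 40.2, 45.1 and 34.6 CPM in the knockdown libraries (log2 fold change −1.20 with SE 0.12, adjusted p = 3.8e-06). KIF1B, known for mitochondria and synaptic vesicle precursors, was at 147, 147 and 128 CPM against 70.8, 69.1 and 64.6 CPM (log2 fold change −1.04 with SE 0.09, adjusted p = 7.4e-07). Scrambled replicate 3 was the lowest scrambled library for both genes and still lay above every knockdown library. Such a gap in this direction was found in 33.9% of all tested genes. KIF13B fell by 0.48 on the log2 scale. KIF16B, an early endosome motor, rose from 18.3 to 20.7 CPM to 23.7 to 26.3 CPM (log2 fold change 0.37). KIF1A, a carrier of synaptic vesicle precursors, had a log2 fold change of 0.33 with adjusted p = 0.042. The call of KIF1A was lost with DESeq2, without a scaling factor, without a filter on low counts and without each library except knockdown replicate 2 (adjusted p from 0.053 to 0.18). KIF1C, a motor of Golgi and RNA traffic and the most abundant kinesin-3 per kb, was at 241, 272 and 265 CPM in the scrambled and 240.3, 269 and 245 CPM in the knockdown libraries (log2 fold change −0.04 with SE 0.08, adjusted p = 0.64). KIF17, a kinesin-2 relative known from dendrites and cilia, was scarce, at 3.33, 5.24 and 5.28 CPM against 1.74, 2.42 and 2.46 CPM (log2 fold change −1.06 with SE 0.25, adjusted p = 0.0026).

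Among the 11 tested motors with other roles 3 fell, 1 rose and 7 did not pass. Of all tested genes 30.8% fell and 30.8% rose, together 61.6%. The 3 that fell are known from cilia, and so are some that did not pass, such as KIF19 and KIF24. KIF9, a motor of motile cilia, was at 9.74, 9.32 and 8.84 CPM in the scrambled and 4.04, 4.31 and 6.04 CPM in the knockdown libraries (log2 fold change −0.95 with SE 0.18, adjusted p = 5.7e-04). Its exons share 569 bases with KIF9-AS1 on the opposite strand, and the strand setting of the counting is not given in the sources used here. Exons of KIF1C, KIF2C, KIF7, KIF13B, KIF18A, KIF20A, KIF22, KIF23, KIF24 and KIF27 overlap genes of the opposite strand too, each by 1.03% to 6.33% of the motor's exon bases per overlapping gene. KIF27, a relative of KIF7, was at 5.45, 6.92 and 5.81 CPM against 4.04, 3.68 and 3.58 CPM (log2 fold change −0.68, adjusted p = 0.0051). KIF7, a regulator of Hedgehog signalling at the cilium tip, fell by 0.55 on the log2 scale.

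KIF21B and KIF21A restrain microtubule growth. KIF21B rose, from 36.8, 36.9 and 30.02 CPM to 50.1, 38.6 and 52.9 CPM (log2 fold change 0.45 with SE 0.13, adjusted p = 0.011). Knockdown replicate 2 lay close to the scrambled values, and the gene did not pass when scrambled replicate 3 was left out (adjusted p = 0.055). KIF21A was at 50.9, 57.3 and 55.5 CPM in the scrambled and 55.7, 60.9 and 59.4 CPM in the knockdown libraries, which overlapped (log2 fold change 0.10 with SE 0.09, adjusted p = 0.32). KIF2A, a depolymerase of spindle poles and axons, was at 104, 104 and 108 CPM against 108, 127 and 105 CPM, again overlapping (log2 fold change 0.11 with SE 0.09, adjusted p = 0.31). KIF24, KIF26A, KIF26B, KIF6 and KIF19 did not pass either, with log2 fold changes from −0.69 for KIF26B (adjusted p = 0.08) to −0.05 for KIF19 (adjusted p = 0.93). KIF6, KIF19 and KIF26B were at or below 1.71 CPM in each library, where few reads limit what could be detected.

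Levels of different genes are compared here per kb of exon, as CPM divided by the merged exon length in GENCODE 29. KIF2C (86.9 ± 2.98 CPM per kb) and KIF23 (81.4 ± 4.20) led in the scrambled libraries (mean ± SD, n = 3), and their single libraries overlapped. KIF20A (54.1 ± 1.59) and KIF3B (51.1 ± 2.01) followed, then KIF5B (43.9 ± 1.89). In the knockdown libraries KIF23 (88.9 ± 7.70 CPM per kb) came first, KIF5B (72.6 ± 10.2) came next and KIF2C (46.6 ± 1.46) was the third. KIF20A went from rank 3 to rank 9 and KIF3C from rank 11 to rank 19 of the 39 genes. KIF11 moved the other way, from rank 13 to rank 8.

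**Figure D3:**
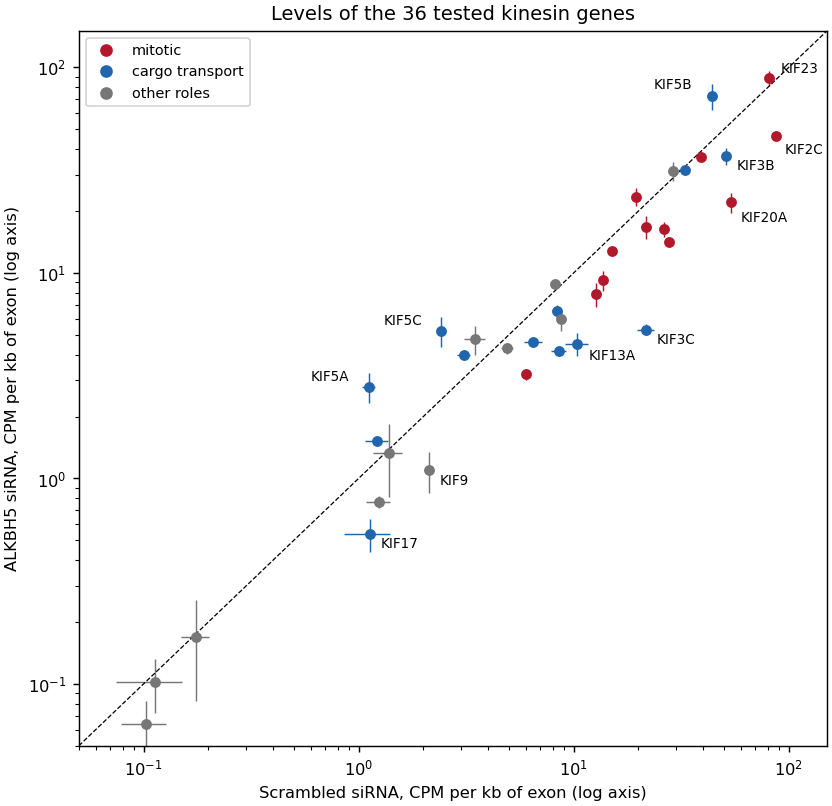
Mean level of each tested kinesin gene as CPM per kb of exon in scrambled (x axis) and ALKBH5 siRNA libraries (y axis), both log axes, with bars for the SD of 3 libraries and a dashed line of equal level. KIF2C, KIF20A and KIF3C lie below the line, and KIF5A, KIF5B and KIF5C lie above it.

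Kinesins that are not numbered KIF and the proteins that work with kinesins were taken from lists, which were drawn up with earlier results of these data known. Their counts can be read beside the 30.8% of all tested genes that fell and the 30.8% that rose. CENPE, which carries chromosomes to the spindle centre, was at 162 ± 5.60 against 70.9 ± 8.11 CPM, a decrease (log2 fold change −1.20), and KIFC1, a minus-end motor that gathers spindle poles, by 0.36 on the log2 scale. KIFC2 and KIFC3 rose. KIFC2 went from 78.4 ± 4.05 to 241 ± 65.4 CPM (log2 fold change 1.62 with SE 0.19, adjusted p = 9.3e-05), with knockdown libraries that differed widely from each other, and KIFC3 rose by 0.61.

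Of 19 mitotic partners 15 fell, 0 rose and 4 did not pass (30.8% of all tested genes fell), with a median log2 fold change of −0.56. PRC1, which bundles midzone microtubules and recruits KIF4A, fell by 1.24 on the log2 scale. The checkpoint kinase gene BUB1 fell by 0.77, AURKB, the kinase that KIF20A relocates, by 0.80, and the spindle protein gene KNSTRN, listed as C15orf23, by 0.87. RACGAP1, the partner of KIF23 in centralspindlin, was at 212 ± 1.60 and 215 ± 15.6 CPM and did not pass (log2 fold change 0.02, adjusted p = 0.80), and neither did ECT2, which centralspindlin recruits (log2 fold change 0.03, adjusted p = 0.83). RACGAP1 and ECT2 fall outside the rule for naming genes and were chosen after their values were seen.

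Of 17 transport partners 10 rose, 4 fell and 3 did not pass (30.8% of all tested genes rose), with a median log2 fold change of 0.37. RHOT1, which ties mitochondria to kinesin-1, was at 46.4 ± 6.00 against 76.8 ± 6.82 CPM, an increase (log2 fold change 0.73). PLEKHM2, an adaptor of kinesin-1, fell by 0.54, and FEZ2, a kinesin-1 adaptor, by 0.79. Dynein and dynactin, which move cargo in the opposite direction, had 11 of 25 tested genes lower and 6 higher, 17 called in all against 61.6% of all tested genes, with a median of −0.17. DCTN1, the large dynactin subunit that binds microtubules, stood at 369 ± 5.04 against 75.9 ± 6.72 CPM, a decrease (log2 fold change −2.28 with SE 0.08, adjusted p = 2.5e-09). DCTN5 and DCTN4, other dynactin subunits, fell by 1.11 and 0.86, and DYNLT3, a dynein light chain, rose by 1.29.

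**Figure D4:**
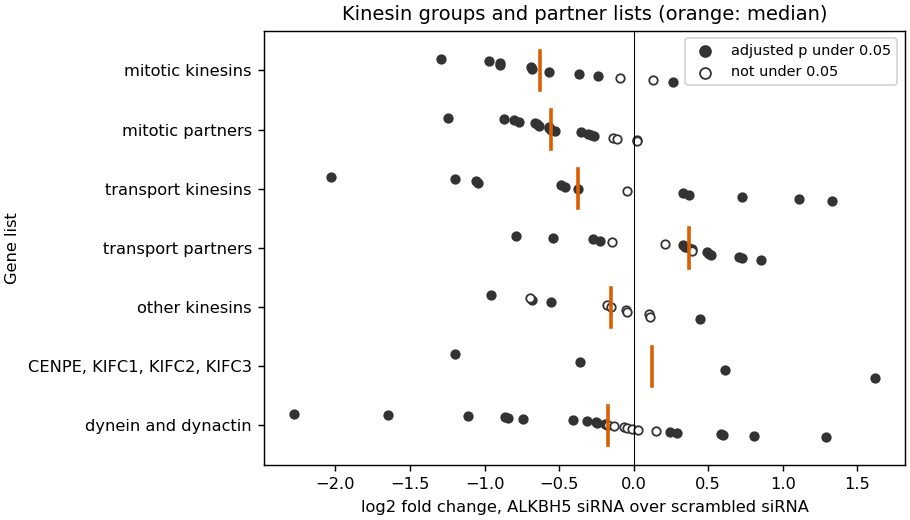
Log2 fold change (x axis) of the genes in each kinesin group and partner list (y axis), filled where the gene passed the test, with an orange bar at the list's median. The medians are −0.63 for mitotic kinesins and −0.56 for their partners, and −0.37 for transport kinesins and 0.37 for theirs.

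Promoters of the mitotic kinesins shared short motifs that most other promoters lacked. Genes of late cell cycle often carry a cell cycle genes homology region (CHR) close to their start, a site known to be bound by the DREAM and B-MYB complexes, together with CCAAT boxes, which NF-Y binds. RefSeq promoters (GRCh38.p14, 250 bases before to 50 after the gene start) were found for 33 of the 39 genes. They were searched on both strands for TTTGAA or TTCGAA (CHR) and for CCAAT, where matches may overlap. A CHR match was in 10 of 13 mitotic kinesin promoters (76.9%), in 1 of 11 transport kinesin promoters (9.1%) and in 11.1% of the 9859 promoters found for tested genes. A CCAAT match was in 76.9%, 27.3% and, for tested genes, 3552 of 9859 promoters, and both were in 69.2%, 9.1% and 4.6%. The roles were set without these sequences.

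The windows below show the CHR match nearest the start in capitals, 5′ to 3′ on the gene's strand. KIF4A, KIF4B, KIF18A and KIF20B are shown because they fell at least 1.5-fold. KIF11, KIF22 and KIF23 are shown because they were not called lower, and KIF5B because it is the transport promoter with a match.
KIF4A (chrX:70290058-70290087, + strand): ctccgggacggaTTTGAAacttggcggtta
KIF4B (chr5:155013746-155013775, + strand): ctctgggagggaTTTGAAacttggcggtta
KIF18A (chr11:28108149-28108178, − strand): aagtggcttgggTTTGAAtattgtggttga
KIF20B (chr10:89701602-89701631, + strand): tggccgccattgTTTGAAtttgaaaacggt
KIF11 (chr10:92593090-92593119, + strand): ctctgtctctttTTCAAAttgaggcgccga
KIF22 (chr16:29790712-29790741, + strand): ggcaccggggaaTTCGAAtgggagaggcgg
KIF23 (chr15:69414282-69414311, + strand): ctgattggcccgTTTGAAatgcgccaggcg
KIF5B (chr10:32056548-32056577, − strand): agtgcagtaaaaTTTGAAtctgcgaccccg

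A CHR match was in 7 of the 9 mitotic motors called lower and in 3 of the 3 tested ones not called lower. A link between match and fold change was not tested. KIF20A and KIF2C, which fell by 1.30 and 0.90 on the log2 scale, had no CHR match of these letters in the window, and KIF20A had 2 CCAAT matches. In the mitotic promoters the matches started between 55 bases before and 30 bases after the gene start. The match of KIF5B lay 140 bases before it. For KIF11, KIF14, KIF18B and KIF20B the bases after the start were not found in a GENCODE transcript, so these positions are less certain. KIF20B alone gives the upper end of the range. The windows of KIF4A and its copy KIF4B were identical at 28 of 30 bases. A match is a run of letters and not a measured site.

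**Figure D5:**
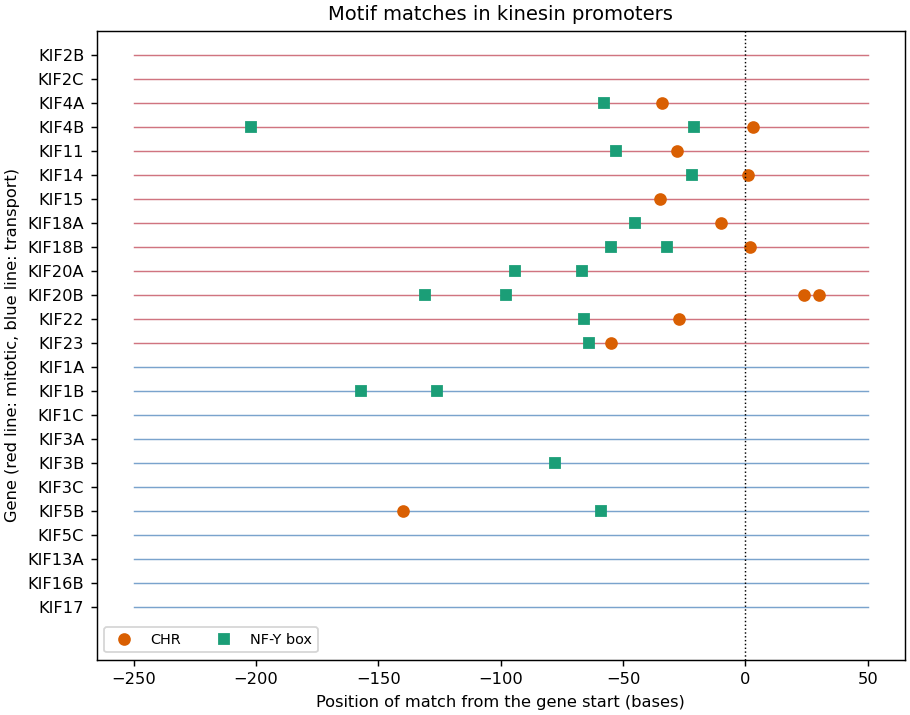
Position of CHR (circles) and NF-Y box matches (squares) from the gene start in bases (x axis) for the mitotic (red lines) and transport kinesins (blue lines) with a promoter in the table (y axis). CHR matches are in 10 of 13 mitotic promoters and in 1 of 11 transport promoters.

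Because ALKBH5 acts on m6A, copies of GGACT, one form of the m6A consensus, were counted in the longest coding GENCODE 29 transcript of each gene, on the transcript strand. The median was 0.685 copies per kb over the 13 mitotic kinesins, 1.12 over the 13 transport kinesins and 0.936 over tested genes with such a transcript. Among the kinesin genes that rose, copies per kb ran from 0.17 (KIF5B) to 1.92 (KIF21B). Among those that fell, they ran from 0.215 (KIF27) to 1.787 (KIF9). A link between these counts and the fold changes was not tested. Methylation itself was not measured.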

How the data were processed

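The family, its role groups and the gene lists were chosen with earlier results of these data known. The authors deposited unnormalised counts of reads for each gene symbol, made with CASAVA 1.8.2, TopHat2, SAMtools and HTSeq on hg19, per the submitters' processing notes. The annotation, the settings and whether strand was used: not given in the sources used here. The series table equalled the 6 single files, 0 columns were unmapped, and HTSeq's 5 summary entries were left out of library sizes and tests. Replicates differed beyond counting noise (chi-square over its degrees of freedom 6.18 to 16.9).

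Counts were tested with edgeR 4.0.16 (R 4.3.3): filterByExpr, TMM scaling, robust glmQLFit and glmQLFTest with group as the single term, 2-sided, and Benjamini-Hochberg adjustment over all 14504 tested genes, called under 0.05. The SE is the fold change divided by the square root of F. Group sizes of 3 allow no exact permutation p below 0.1, which ALKBH5 reached. CPM values carry TMM factors (0.962 to 1.03).

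Values for every library are given for members called with at least a 1.5-fold change and for the 3 most abundant per role, and for up to 4 called genes per partner list the fold change. One gene that this rule takes is not reported here. Alternatives were RLE scaling, no scaling factor, no filter, 1 CPM in 3 libraries, DESeq2 1.42.0, limma-voom (limma 3.58.1), glmTreat against 1.5-fold, a replicate block, each library left out and wider role groups. Lengths and transcripts came from GENCODE 29 and promoters from RefSeq (both GRCh38), matched by symbol, and no coordinate was joined to the hg19 counts. Of the 33 promoters found, 19 had the bases after the start in a GENCODE transcript of the gene, in its direction.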

Additional observations from a re-analysis of the deposited data

How the results depend on the processing

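Across the alternatives, glmTreat aside, 442 of the pairs of a tested kinesin gene and a setting kept the direction and side of the threshold, 14 lost the call and 3 gained it. In 8 pairs, all of KIF6, KIF19 or KIF26A with a library left out, the fold change crossed 0 without passing in either fit, and no called gene changed direction. The lost calls were of KIF1A, KIF11, KIF14 and KIF21B, and the gained ones of KIF24 and KIF26B. Tested against a 1.5-fold change with glmTreat, which asks for a larger effect, 9 kinesin genes were lower and 2 higher, of which 4 and 0 were mitotic and 4 and 2 transport. Over all genes glmTreat called 3601 against 8937. The single mitotic increase, KIF11, was not called without a scaling factor (0 higher), and leaving out 1 library gave 0 to 1. Left out one at a time, the libraries gave 18 to 20 lower and 5 to 6 higher kinesin genes. With KIF2A and KIF24 counted as mitotic and KIF21A and KIF21B as transport, the medians were −0.469 and −0.045. Without a scaling factor all genes had a median log2 fold change of −0.06, the mitotic kinesins −0.69 and the transport kinesins −0.44.

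Replicate numbers did not pair the libraries by the rule used: deviations of same-numbered libraries correlated at 0.331, 0.0578 and 0.351, not all above 0.1. Scrambled replicate 2 correlated more with knockdown replicate 1 (0.0768). All other pairs of unlike numbers correlated negatively, from −0.367 to −0.00824, so the rule does not settle whether the libraries were paired. With the replicate block 20 kinesin genes were lower and 7 higher, and 9760 of all genes were called, against 8937 without it. Depth limits the genes near 1 CPM (KIF6, KIF19, KIF26B) and leaves KIF2B, KIF12 and KIF25 untested.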
